A study of Mus musculus with 9 samples.

Results

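The collagen genes of the mouse were described in 9 RNA sequencing libraries of cultured neural stem cells and of tumour cells derived from them. The collagens were taken as every gene whose symbol is Col, a type number, the letter a and a chain number, which gave 44 of the 47729 genes in the count table. The study compared 3 cell types with 3 independent cultures each. NSC are wild type primary neural stem cells. They came from the subventricular zone, which lines the lateral ventricles of the brain and keeps dividing stem cells in the adult, and their cultures carry the numbers 1, 3 and 5. LTR are tumour cells made from neural stem cells, with the genotype label lgT/Ras (cultures 1 to 3). NF1 are tumour cells made from neural stem cells with the genotype label shp53, Nf1-/-, CDK4 (cultures 1 to 3). All cells were kept in standard neural stem cell culture for up to 10 passages. The sources used here do not give the promoter of a transgene, the number of clones behind a tumour group or the age of the animals. They also do not say whether the 3 cultures of a tumour group were transformed separately. The p-values therefore weigh a group difference against the spread between these cultures only.

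Collagens are proteins of the extracellular matrix built from 3 chains wound into a triple helix. Fibrillar collagens assemble into the banded fibrils of connective tissue, and the FACIT collagens (fibril-associated collagens with interrupted triple helices) decorate the surface of those fibrils. Type IV collagens form the sheet-like network of basement membranes, to which the multiplexins, cut to release fragments such as endostatin, are attached. Type VI forms beaded filaments, types VIII and X form networks, type VII forms anchoring fibrils, and the transmembrane collagens stay in the plasma membrane. In the brain, fibrillar collagen is largely limited to meninges and vessels, while basement membranes surround vessels and reach into the subventricular niche of the stem cells.

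Total counts ran from 28600479 (LTR 2) to 57231024 (NSC 3). Levels are counts scaled to library size with TMM factors (CPM), and 3 counts in a library, the floor used here, correspond to 0.0541 to 0.114 CPM. The column headers give the NSC libraries 1 lane and the tumour libraries another. Lane therefore cannot be told apart from group. The stem cell markers Nes and Sox2 were present in every library, at 426 to 2433 and 178 to 358 CPM, whereas Slc1a3, a glutamate transporter of radial glia, measured 660 to 920 CPM in NSC and at most 4.77 CPM in the tumour libraries. Trp53, the target of shp53, was at 217, 151 and 221 CPM in NF1 1, 2 and 3 against 101 to 114 CPM in NSC, higher where the label names a knockdown. The group is therefore referred to by its label, as the libraries labelled NF1 (NF1 for short in contrasts). Nf1 measured 59.0, 97.2 and 40.1 CPM in NF1 1 to 3 and 82.5 to 114 CPM in NSC (adjusted p = 0.205), and counts over the whole gene do not show which exons are lost. Cdk4 measured 795, 393 and 1124 CPM against 325 to 456 CPM in NSC (adjusted p = 0.053). NF1 2 thus lay within the NSC range for both genes, and NF1 1 and NF1 3 did not. Trp53 and Cdk4 were also higher than NSC in LTR, whose label names neither. Trp53 measured 223, 281 and 255 CPM in LTR 1 to 3 (adjusted p = 0.00258). Cdk4 measured 1015, 935 and 1020 CPM there (adjusted p = 0.0135). NF1 2 stood apart: its log CPM correlated with NF1 1 and NF1 3 at 0.936 and 0.911 across genes, against 0.981 between those 2. NSC 3 differed from its group in the same way, at 0.958 and 0.953 against 0.991. In libraries of whole cultures, fewer cells of a type and less RNA per cell cannot be told apart.

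The promoters of 4 collagens are shown first, to set genes that fell beside genes that rose in LTR. They were chosen after the values were seen, as the 2 deepest falls and the 2 steepest rises among abundant collagens with a single RefSeq start site (GRCm38.p6) whose upstream bases touch no annotated exon. Each line gives the 150 bases before the transcription start, 5′ to 3′ on the gene's strand. Capitals mark CCAAT (or ATTGG on the other strand), TATAAA (or TTTATA) and the GC box GGGCGG (or CCGCCC), and no marked match overlaps another.
Col11a1 (fell, chr3:114030390-114030539, plus strand): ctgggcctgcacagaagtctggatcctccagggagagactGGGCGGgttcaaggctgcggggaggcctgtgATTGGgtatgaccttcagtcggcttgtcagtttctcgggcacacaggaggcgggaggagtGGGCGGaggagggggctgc
Col5a3 (fell, chr9:20815068-20815217, minus strand): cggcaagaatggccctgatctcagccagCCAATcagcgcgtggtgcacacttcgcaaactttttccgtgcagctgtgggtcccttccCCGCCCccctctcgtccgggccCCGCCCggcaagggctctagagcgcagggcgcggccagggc
Col3a1 (rose, chr1:45311388-45311537, plus strand): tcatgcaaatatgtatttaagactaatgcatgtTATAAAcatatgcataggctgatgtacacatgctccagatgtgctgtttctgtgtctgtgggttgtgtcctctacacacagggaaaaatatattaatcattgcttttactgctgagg
Col7a1 (rose, chr9:108953436-108953585, plus strand): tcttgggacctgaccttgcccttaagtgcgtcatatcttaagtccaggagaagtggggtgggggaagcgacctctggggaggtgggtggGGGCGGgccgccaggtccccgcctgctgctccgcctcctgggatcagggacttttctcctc
The Col11a1 and Col5a3 windows each held a CCAAT match and a pair of GC boxes, at GC contents of 64.7% and 68.7%. The Col3a1 window differed in base composition, with a GC content of 37.3% and a TATAAA match, and the Col7a1 window (64.0%) held a single GC box. RefSeq windows were matched for 35 of the 44 collagens (38 windows). CCAAT occurred in 8 of the 38 collagen windows (21.1%) and in 24.5% of all 32851 windows, TATAAA in 4 (10.5%) and in 7.57%, and the GC box in 19 (50.0%) and in 28.6%. A match describes the letters only.

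Collagen transcripts made up a larger share of the RNA in NSC than in either tumour group. The 44 genes together took 0.52%, 0.218% and 0.577% of all counts in NSC 1, 3 and 5 (0.438 ± 0.193%, SD, n = 3). In LTR the share was 0.141 ± 0.0291%, and in the libraries labelled NF1 it was 0.158 ± 0.0615% (n = 3 each). Every LTR library lay below every NSC library, while NF1 2, at 0.219%, overlapped NSC 3. The make-up of the collagen counts shifted as well. Fibrillar collagens held 47.4 ± 7.6% of collagen counts in NSC, 21.2 ± 4.03% in LTR and 16.8 ± 1.86% in the libraries labelled NF1. FACIT collagens held 9.08 ± 2.12%, 1.57 ± 0.632% and 2.86 ± 1.15% in the same order. Type IV collagens held 24.4 ± 1.75%, 35.8 ± 2.38% and 38.1 ± 2.39%, and the multiplexins 12.5 ± 9.7%, 31.9 ± 2.38% and 32.1 ± 1.7%. These shares are of counts, to which longer transcripts contribute more, and of a collagen total that was smaller in the tumour groups. Summed type IV levels were 1015 ± 373 CPM in NSC, 498.7 ± 38.4 in LTR and 601.4 ± 190 in the libraries labelled NF1, so they did not rise. Summed multiplexin levels were 416 ± 103, 447.8 ± 85.1 and 517.9 ± 209 CPM in the same order.

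**Figure D1:**
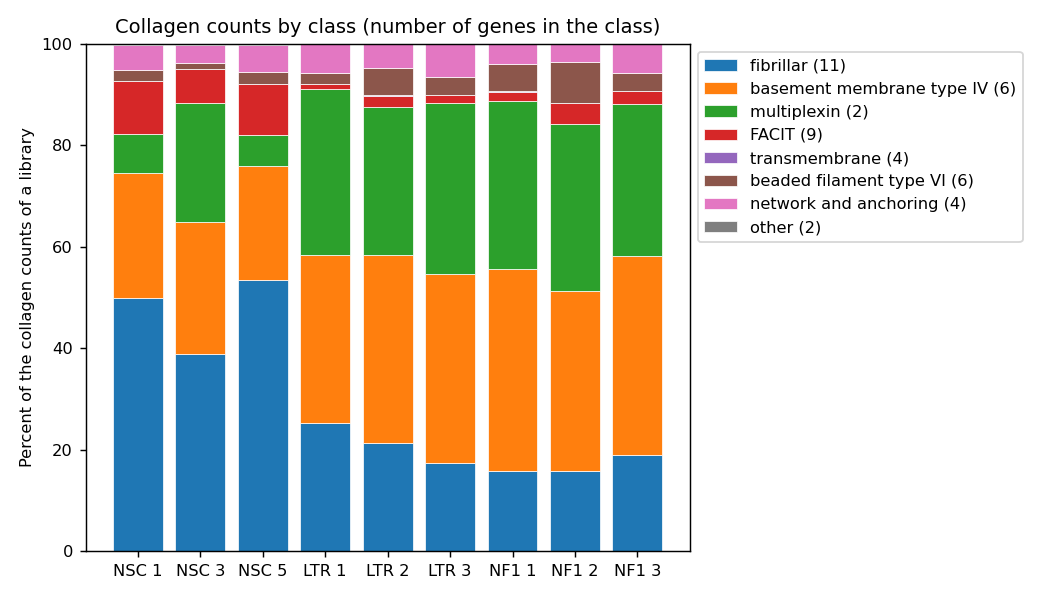
Share of each library's collagen counts (y axis, percent) held by each of the 8 collagen classes, with the number of genes in a class in brackets. Fibrillar collagens hold 38.9% to 53.4% in the 3 NSC libraries and 15.7% to 25.3% in the 6 tumour libraries.

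The single most abundant collagen by counts was Col5a2 in NSC 1 (18.6% of collagen counts) and NSC 5 (20.8%). In NSC 3 and in all 6 tumour libraries it was Col18a1, with 23.6% in NSC 3 and 29.2% to 33.7% in the tumour cells. Levels per kilobase of exon, which allow for gene length, gave a similar order. The length joined all annotated exons and could exceed the longest transcript, at 9591 against 6625 bases for Col5a2. Genes with close values, such as Col4a5, Col18a1 and Col1a1 in NSC, may therefore change order with another length. In NSC the highest were Col5a2 (79.9 CPM per kilobase), Col4a5 (59.6), Col18a1 (59.2) and Col1a1 (57.1). LTR had Col18a1 (63.8) and Col4a1 (42.6) far above Col4a2 (14.1) and Col5a1 (13.3). The libraries labelled NF1 had Col18a1 (73.6) and Col4a1 (40.2), then Col6a1 (17.4) and Col5a1 (17.0).

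The LTR libraries were compared with NSC to ask how collagen levels in tumour cells stand against those of wild type cells, and the libraries labelled NF1 were compared with the same NSC libraries. Of the 44 collagens, 32 had enough counts to be tested. In LTR 3 of these rose (Col3a1, Col7a1 and Col28a1), 16 fell and 13 did not pass the edgeR quasi-likelihood test at a Benjamini-Hochberg adjusted p under 0.05. That is 59.4% called, where 35.9% of all 15696 genes tested were called (14.9% higher and 20.9% lower). In the libraries labelled NF1, 2 rose (Col7a1 and Col28a1), 12 fell and 18 did not pass, or 43.8% against 23.1% of all genes (10.1% higher and 13.1% lower). The median log2 fold change of the 32 collagens was -1.76 in LTR and -1.10 in the libraries labelled NF1, and -0.06 and 0.00 over all genes. Setting genes without a count in 1 group to their lower bound left both medians as they were. For 19 collagens no LTR library overlapped the NSC range (59.4% of those tested, and 59.0% of all genes), and for 17 no library labelled NF1 did (42.3% of all genes). All 12 collagens that fell in the libraries labelled NF1 also fell in LTR and both that rose there also rose in LTR, but the comparisons share their NSC libraries. Without both NSC 3 and NF1 2, 24 of 33 tested fell in LTR and 19 of 33 in the libraries labelled NF1. In that fit 26.8% and 25.4% of all genes fell, so lower calls became more frequent over all genes as well. The 2 libraries were picked after their values were seen. NSC 3 was below both other NSC cultures for 28 of the 32 tested collagens. NF1 2 was above both NF1 1 and NF1 3 for 22 of them. Leaving this pair out favours lower calls by construction, so calls gained only in this way are no support for a fall.

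**Figure D2:**
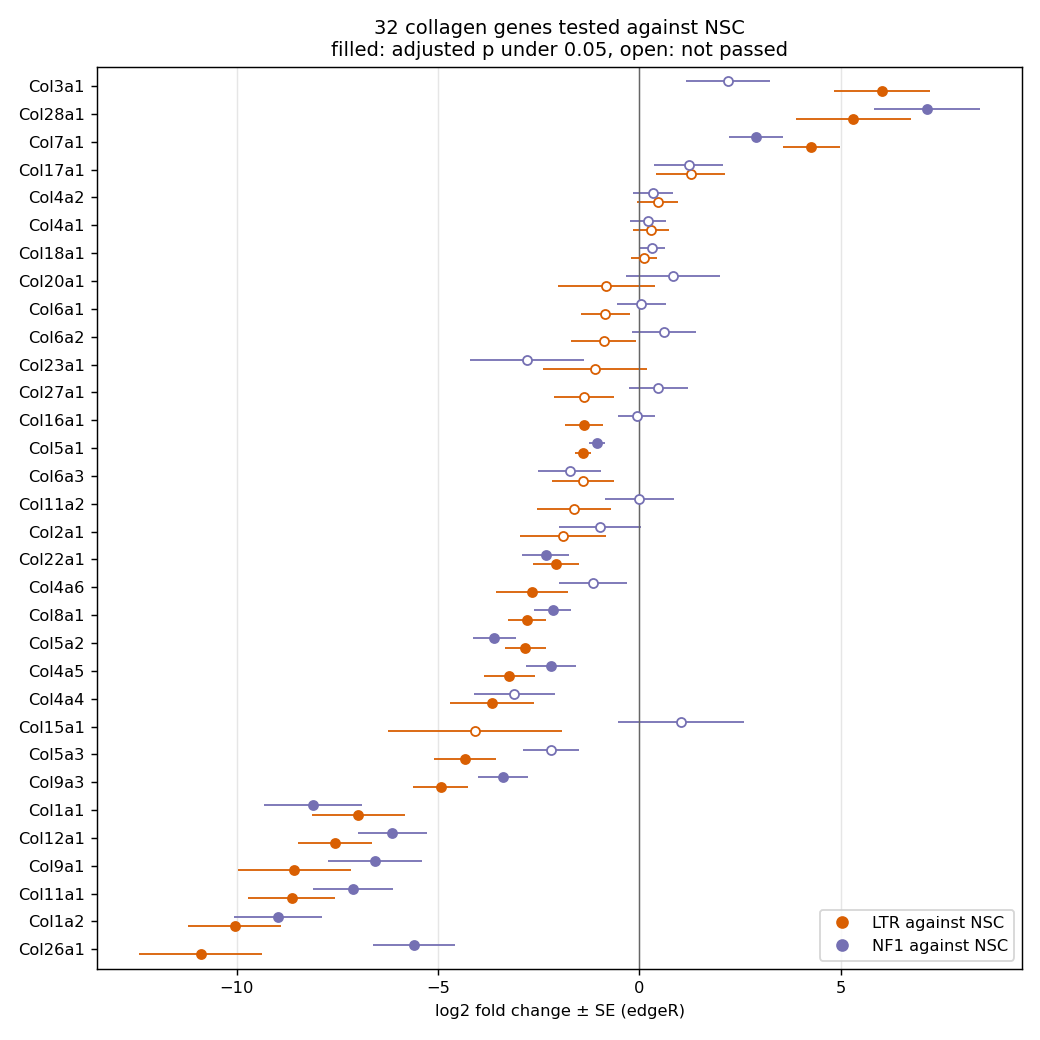
Fitted log2 fold change ± SE (x axis) of the 32 tested collagens in LTR (orange) and in the libraries labelled NF1 (purple) against NSC, with filled points past an adjusted p of 0.05. The points run from Col26a1 and Col1a2, both lower, to Col3a1 and Col28a1, higher, and the fitted values of Col26a1, Col9a1 and Col28a1, which have no count in 1 group, depend on the prior count of 0.125.

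Fibrillar collagens held several of the deepest falls. Of the 10 tested of 11, 6 fell and 1 rose in LTR, and 5 fell and none rose in the libraries labelled NF1. Among all genes tested, 20.9% and 13.1% fell. Col1a1 (ENSMUSG00000001506, GRCm38 chromosome 11, 94936224 to 94953042), which encodes the alpha1 chain of type I collagen, the main collagen of skin and bone, measured 487, 16.5 and 621 CPM in NSC 1, 3 and 5. In LTR 1 to 3 it measured 3.20, 3.85 and 1.88 CPM, and in NF1 1 to 3 it measured 1.91, 1.28 and 0.887 CPM. All 6 tumour libraries thus lay below NSC 3, which was itself well below the other NSC cultures. The log2 fold change was -6.98 ± 1.16 in LTR (adjusted p = 0.00294) and -8.10 ± 1.22 in the libraries labelled NF1 (adjusted p = 0.0029). Col1a2 (ENSMUSG00000029661, chromosome 6, 4504814 to 4541544), the partner chain of type I, measured 258, 23.9 and 397 CPM in NSC. It measured 0.237, 0.0763 and 0.299 CPM in LTR 1 to 3 and 0.319, 0.320 and 0.717 CPM in NF1 1 to 3, with no overlap between either tumour group and NSC. The log2 fold change was -10.05 ± 1.15 (adjusted p = 0.000939) for LTR and -8.97 ± 1.09 (adjusted p = 0.00146) for NF1, and without NSC 5 these were -9.37 and -8.29.

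Col11a1 (ENSMUSG00000027966, chromosome 3, 114030540 to 114220718), a minor fibrillar chain best known from cartilage, measured 273, 161 and 284 CPM in NSC 1, 3 and 5. It measured 0.207, 1.45 and 0.209 CPM in LTR and 0.464, 3.94 and 0.785 CPM in NF1 1 to 3. The log2 fold change was -8.64 ± 1.09 for LTR (adjusted p = 0.00128) and -7.11 ± 1 for NF1 (adjusted p = 0.00236). LTR 2 and NF1 2 were the highest of their groups, and leaving each out gave -10.02 and -8.58. Type V collagen, which helps to set the diameter of type I fibrils, has 3 chains. Col5a1 (ENSMUSG00000026837, chromosome 2, 27886425 to 28039514) had the tightest NSC values of the abundant collagens, 319, 277 and 300 CPM. It fell to 130, 104 and 105 CPM in LTR (log2 fold change -1.40 ± 0.20, adjusted p = 0.00179) and to 164, 158 and 111 CPM in NF1 1 to 3 (-1.05 ± 0.20, adjusted p = 0.00717). Col5a2 (ENSMUSG00000026042, chromosome 1, 45374321 to 45503282) measured 924, 234 and 1142 CPM in NSC. It fell to 119, 105 and 96.0 CPM in LTR (-2.84 ± 0.51, adjusted p = 0.00402) and to 48.1, 82.4 and 59.2 CPM in NF1 1 to 3 (-3.60 ± 0.53, adjusted p = 0.00261). Neither tumour group overlapped NSC for Col5a1 or Col5a2.

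Col5a3 (ENSMUSG00000004098, chromosome 9, 20770050 to 20815067), the rarer type V chain, was even across NSC at 203, 160 and 189 CPM and fell to 3.56, 14.0 and 9.64 CPM in LTR (-4.34 ± 0.77, adjusted p = 0.00399). NF1 1 and NF1 3 were at 22.7 and 11.7 CPM but NF1 2 at 86.2 CPM, and the difference of the group missed the threshold (-2.19 ± 0.70, adjusted p = 0.0501). It passed under 10 of 19 alternatives, with an adjusted p of 0.00134 without NF1 2 and of up to 0.15 over all of them. Col3a1 (ENSMUSG00000026043, chromosome 1, 45311538 to 45349706), which encodes type III collagen of vessels and soft tissue, went the other way. It measured 1.75, 0.180 and 1.15 CPM in NSC and 152, 30.4 and 16.4 CPM in LTR, so the lowest LTR library stood well above the highest NSC library (6.03 ± 1.20, adjusted p = 0.00609, 4.53 without LTR 1 and 6.67 without NSC 1). NF1 1 to 3 measured 4.84, 1.15 and 8.12 CPM, where NF1 2 lay within the NSC range, and the difference did not pass (2.21 ± 1.04, adjusted p = 0.148). Col2a1, Col11a2 and Col27a1, none above 10 CPM in any library, passed in neither comparison, and Col24a1 had too few counts. Without both NSC 3 and NF1 2, Col2a1, Col11a2 and Col27a1 passed as lower in LTR (adjusted p = 0.0109, 0.0151 and 0.0205), and Col2a1 also in the libraries labelled NF1 (0.0052, and 0.0279 without NF1 2 alone).

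**Figure D3:**
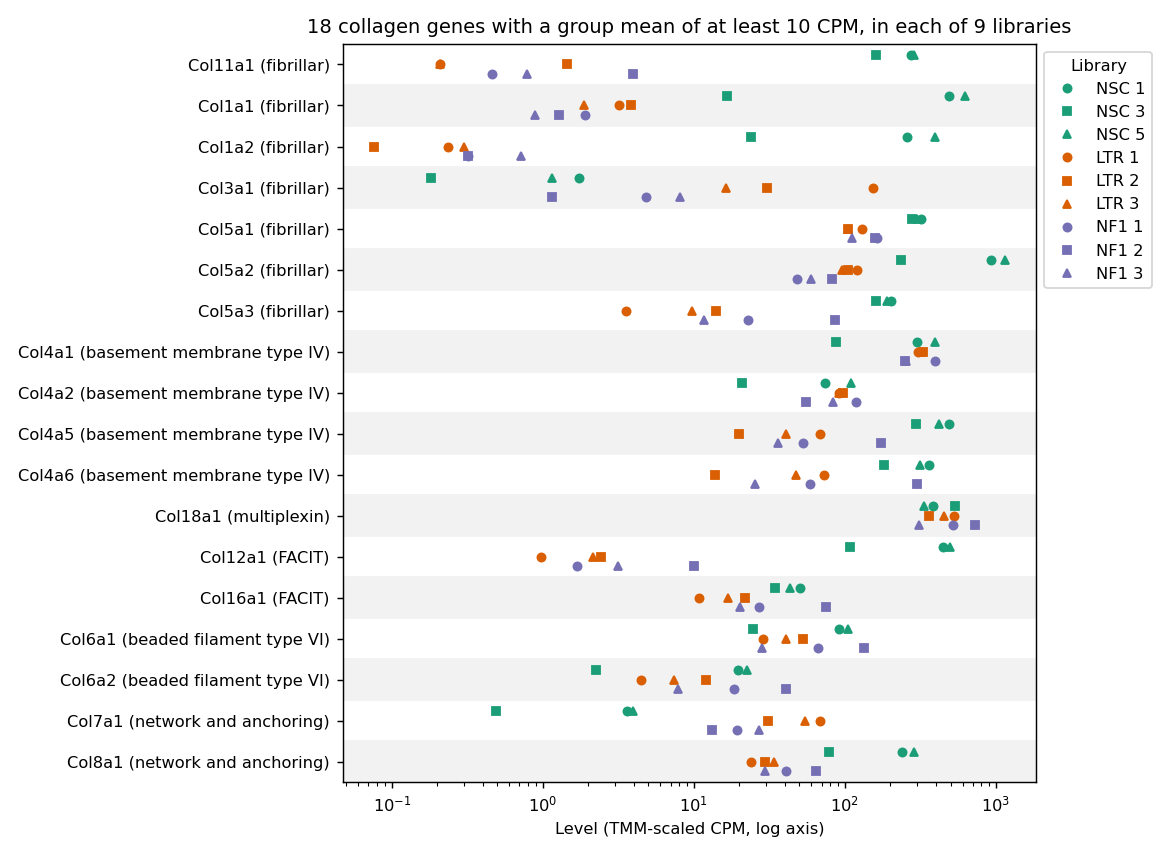
Level in CPM (x axis, log scale) of the 18 collagens with a group mean of at least 10 CPM in at least 1 group, in each library of NSC (green), LTR (orange) and the libraries labelled NF1 (purple), with the class of each gene in brackets. For Col1a1, Col1a2, Col11a1 and Col12a1 all tumour points lie left of all NSC points, while for Col4a1, Col4a2 and Col18a1 the groups overlap.

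Most FACIT collagens with enough counts were lower in the tumour cells. Of 6 tested of 9, 5 fell in LTR and 4 in the libraries labelled NF1, and none rose, where 20.9% and 13.1% of all genes fell. Col12a1 (ENSMUSG00000032332, chromosome 9, 79598991 to 79718831), a FACIT of type I fibrils, measured 444, 108 and 496 CPM in NSC 1, 3 and 5. LTR had 0.978, 2.44 and 2.15 CPM (-7.56 ± 0.92, adjusted p = 0.00115), and NF1 1 to 3 had 1.68, 10.1 and 3.14 CPM (-6.14 ± 0.86, adjusted p = 0.00231). NF1 2 was the highest tumour library and still lay well below NSC 3, and without it the log2 fold change was -7.17. Col16a1 (ENSMUSG00000040690, chromosome 4, 130047840 to 130099283), a FACIT of several fibril types, measured 50.4, 34.4 and 43.2 CPM in NSC and 10.8, 21.7 and 16.7 CPM in LTR (-1.38 ± 0.48, adjusted p = 0.0478). That call was lost under 8 of 19 alternatives, among them the removal of NF1 1 or of any NSC or LTR library (adjusted p from 0.052 to 0.136). NF1 1 to 3 had 26.8, 74.8 and 20.1 CPM, on both sides of the NSC values (-0.07 ± 0.47, adjusted p = 0.922, and -0.94 with 0.0371 without both NSC 3 and NF1 2).

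The type IX chains, FACITs of cartilage fibrils, were low in NSC and lower in the tumour cells. Col9a3 measured 7.28, 3.97 and 9.06 CPM in NSC, 0.0763 to 0.328 CPM in LTR (-4.94 ± 0.69, adjusted p = 0.00166) and 0.341 to 1.06 CPM in the libraries labelled NF1 (-3.39 ± 0.63, adjusted p = 0.00659). It shares 6.07% of its exon bases with Tcfl5 on the other strand, which had 39 counts over all libraries. Col9a1 had 159 counts over the NSC libraries and none in LTR, at least 38-fold lower against a floor of 3 counts over the group. The libraries labelled NF1 had 1 Col9a1 count, in NF1 3, a ratio of 116 with an exact 95% counting interval of 20.5 to 4600 (adjusted p = 0.00849). Col9a2 had 71 counts in NSC, none in LTR and 5 in the libraries labelled NF1, too few for the test. Col22a1, a collagen of tissue junctions, measured 9.74, 2.65 and 9.71 CPM in NSC and 0.898 to 2.29 CPM in the tumour libraries. The log2 fold change was -2.07 ± 0.57 for LTR (adjusted p = 0.0212) and -2.33 ± 0.58 for NF1 (adjusted p = 0.02). Each call was lost under 5 of 18 alternatives. These were the replicate block (0.0771 and 0.0803) and the removal of NSC 1, NSC 5, LTR 1 or LTR 3 for LTR (0.0623 to 0.0863) or of NSC 1, NSC 5, NF1 1 or NF1 3 for NF1 (0.0511 to 0.0748). Col20a1 did not pass, and Col14a1 and Col19a1 had too few counts, although Col14a1 had 38 of its 47 LTR counts in LTR 1.

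Type IV collagens split by chain pair. Col4a1 (ENSMUSG00000031502, chromosome 8, 11198423 to 11312826) and Col4a2 (ENSMUSG00000031503, chromosome 8, 11312805 to 11449287) encode the chains found in nearly all basement membranes. Col4a1 measured 300, 87.8 and 393 CPM in NSC, 304, 329 and 321 CPM in LTR and 394, 251 and 255 CPM in NF1 1 to 3. Its differences from NSC were 0.29 ± 0.45 (adjusted p = 0.632) and 0.21 ± 0.45 (adjusted p = 0.763). Col4a2 measured 73.9, 20.7 and 109 CPM in NSC, 91.6, 96.9 and 90.7 CPM in LTR and 119, 55.1 and 83.7 CPM in NF1 1 to 3, with differences of 0.45 ± 0.50 (adjusted p = 0.496) and 0.34 ± 0.50 (adjusted p = 0.645). Both genes were steady across LTR and variable across NSC, where NSC 3 was lowest, and all tumour values except those of NF1 1, just above NSC 5, lay within the NSC range. The sign of the Col4a1 difference changed without NSC 3 or without NF1 1 in the libraries labelled NF1, and without both NSC 3 and NF1 2 in either group.

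Col4a5 (ENSMUSG00000031274, chromosome X, 141475385 to 141689234) and Col4a6 (ENSMUSG00000031273, chromosome X, 141165403 to 141474076), which pair in a narrower set of basement membranes, were lower in LTR. Col4a5 measured 489, 293 and 419 CPM in NSC and 67.9, 19.8 and 40.8 CPM in LTR (-3.23 ± 0.64, adjusted p = 0.00624). In NF1 1 to 3 it measured 53.2, 173 and 35.8 CPM (-2.20 ± 0.62, adjusted p = 0.0319, and -3.16 without NF1 2), with no overlap with NSC. This call was lost without NSC 1, NSC 5, NF1 1 or NF1 3 (adjusted p of 0.0696 to 0.108). Col4a6 measured 360, 181 and 315 CPM in NSC and 72.8, 13.8 and 47.8 CPM in LTR (-2.67 ± 0.89, adjusted p = 0.0419). Removing any single NSC or LTR library ended that call (0.0506 to 0.113). NF1 1 and NF1 3 had 58.5 and 25.2 CPM, but NF1 2 had 300 CPM, within the NSC range. The group did not pass (-1.16 ± 0.84, adjusted p = 0.339), but it did with NF1 2 left out (-2.75, adjusted p = 0.0101). Col4a4, a chain of the glomerular basement membrane, was low throughout. It measured 1.83, 1.07 and 0.858 CPM in NSC and at most 0.341 CPM in a tumour library, and passed in LTR (-3.66 ± 1.05, adjusted p = 0.0248, lost without NSC 1, LTR 2 or LTR 3 at 0.0748 to 0.0865, and -5.02 without LTR 1) but not in the libraries labelled NF1 (-3.11 ± 1.01, adjusted p = 0.0526, and 0.0318 without NF1 3). Its partner Col4a3 had too few counts.

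The multiplexin Col18a1 (ENSMUSG00000001435, chromosome 10, 77052178 to 77166548), the endostatin precursor of basement membranes, passed in neither comparison. It measured 382, 532 and 333 CPM in NSC, 530, 360 and 452 CPM in LTR and 519, 724 and 308 CPM in NF1 1 to 3. The 3 groups overlapped, and the differences were 0.11 ± 0.32 (adjusted p = 0.811) and 0.31 ± 0.32 (adjusted p = 0.502), the first of which changed sign without NSC 5 or LTR 1. Col15a1, the other multiplexin, was at or under 0.821 CPM in all libraries but NF1 2, which had 2.5 CPM (78 counts), and did not pass. Without NF1 2 it passed as lower in LTR (adjusted p = 0.0483), and its estimate for NF1 against NSC turned from 1.03 to -4.13 without both NF1 2 and NSC 3 (adjusted p = 0.0174).

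None of the 3 tested of 6 type VI collagens passed in either comparison. Col6a1 (ENSMUSG00000001119, chromosome 10, 76708792 to 76726168) measured 91.5, 24.5 and 104 CPM in NSC, 28.6, 53.1 and 40.6 CPM in LTR and 66, 134 and 28.4 CPM in NF1 1 to 3. Col6a2 (ENSMUSG00000020241, chromosome 10, 76595762 to 76623630) measured 19.6, 2.24 and 22.4 CPM in NSC, 4.45, 12.1 and 7.43 CPM in LTR and 18.5, 41.0 and 7.85 CPM in NF1 1 to 3. For both genes NSC 3 was the lowest NSC library and NF1 2 the highest of all 9. Without these 2 libraries Col6a1 and Col6a2 passed as lower in LTR (adjusted p = 0.0185 and 0.0312). Col6a3 stayed under 4 CPM and did not pass, but it passed as lower in the libraries labelled NF1 without NSC 3 (0.0383), without NF1 2 (0.0381) and without both (0.00222), and in LTR without both (0.00704), and Col6a6 had no count in any library.

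Network and anchoring collagens moved in opposite directions. Col8a1 (ENSMUSG00000068196, chromosome 16, 57624258 to 57754737), a network collagen of vessel walls and the cornea, measured 238, 77.9 and 284 CPM in NSC. It measured 24.0, 29.5 and 33.7 CPM in LTR (-2.79 ± 0.47, adjusted p = 0.0033) and 41.0, 64.8 and 29.8 CPM in NF1 1 to 3 (-2.15 ± 0.46, adjusted p = 0.0116), all below NSC 3. Col7a1 (ENSMUSG00000025650, chromosome 9, 108953586 to 108984875), the anchoring fibril collagen under epithelia, measured 3.60, 0.487 and 3.94 CPM in NSC. It rose to 68.6, 30.9 and 54.2 CPM in LTR (4.27 ± 0.71, adjusted p = 0.00307) and to 19.4, 13.2 and 27.1 CPM in NF1 1 to 3 (2.90 ± 0.67, adjusted p = 0.0156). Every tumour library exceeded every NSC library, and both calls held under all 19 alternatives. Per kilobase of exon Col7a1 reached 4.98 CPM in LTR, well under Col4a1. Col8a2 and Col10a1 had too few counts.

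Among the remaining collagens, Col26a1 fell and Col28a1 rose. Col26a1 had 817 counts over the NSC libraries (8.15, 3.32 and 8.72 CPM) and none in LTR, at least 195-fold lower. It had 13 counts in the libraries labelled NF1, with none in NF1 3 (-5.60 ± 1.02, adjusted p = 0.00933, and -6.68 without NF1 2). Col28a1, a collagen known from peripheral nerve, had no count in NSC, 12 in LTR (at least 5.59-fold higher, adjusted p = 0.0251) and 48 in the libraries labelled NF1 (at least 22-fold higher, adjusted p = 0.01). Its highest library, NF1 1, had 26 counts, and the LTR call was lost without any 1 NSC library or without LTR 2 (adjusted p of 0.0512 to 0.0623). The transmembrane collagens Col17a1 and Col23a1 were at 1.28 CPM or less in every library and passed in neither comparison, and Col13a1 and Col25a1 had too few counts. The 12 collagens that were not tested reached a group mean of at most 0.592 CPM (Col9a2 in NSC).

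The libraries labelled NF1 were compared with LTR to ask whether the tumour lines differ from each other. None of the 32 collagens passed the edgeR test, and neither did any of the 15696 genes (0.0%). At an unadjusted p under 0.05 there were 7 collagens, against 10.2% of all genes, and DESeq2 called 1 collagen, Col3a1, lower (adjusted p = 0.00419), with 198 genes higher and 132 lower over all genes. Col3a1 was 14.1-fold lower than in LTR (-3.82 ± 1.07, adjusted p = 0.338 by edgeR, and -2.31 without LTR 1), and the lowest LTR library (16.4 CPM) exceeded the highest library labelled NF1 (8.12 CPM). The other 6 were Col5a3, Col16a1, Col27a1, Col9a3, Col15a1 and Col26a1, all with higher estimates in the libraries labelled NF1. Libraries of the 2 tumour groups did not overlap for 6 collagens (12.5% of all genes): Col3a1, Col5a2 and Col7a1 were higher in LTR, and Col1a2, Col9a3 and Col28a1 higher in the libraries labelled NF1. The last 3 rest on few counts. Col1a2 had 10 counts in both LTR 3 and NF1 2, and Col9a3 had 11 in LTR 3 and 10 in NF1 3. For these genes the gap came from the scaling. Col7a1 differed by -1.36 ± 0.63 (adjusted p = 0.509) and Col5a2 by -0.76 ± 0.48 (adjusted p = 0.64).

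Single cultures stood apart within their groups. NSC 3 was below both NSC 1 and NSC 5 for 17 of the 18 abundant collagens and for 28 of the 32 tested, whereas 44.2% of all tested genes had that order. Col1a1 was 33.6 times lower in NSC 3 than the mean of the other NSC cultures, Col1a2 13.7 times and Col6a2 9.39 times. Col4a1, Col4a2, Col5a2, Col12a1, Col6a1 and Col8a1 were 3.35 to 4.43 times lower. Col5a1, Col5a3 and Col16a1 were within 1.36 times, and Col18a1 alone was higher in NSC 3, by 1.49 times. Col3a1 and Col7a1, which rose in LTR, were also lowest in NSC 3 (8.03 and 7.74 times). Of 12 markers of mural cells, the pericytes and smooth muscle cells of vessels, NSC 3 was below both other NSC cultures for 7 and above both for 1. Of 14 fibroblast and meningeal markers it was below both for 9 and above both for 4. The share over all tested genes was 44.2%. Among the mural markers the 2 contractile genes Acta2 and Tagln had the order of most collagens. Acta2 measured 796, 165 and 918 CPM in NSC 1, 3 and 5 and Tagln 470, 95.6 and 594 CPM.

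**Figure D4:**
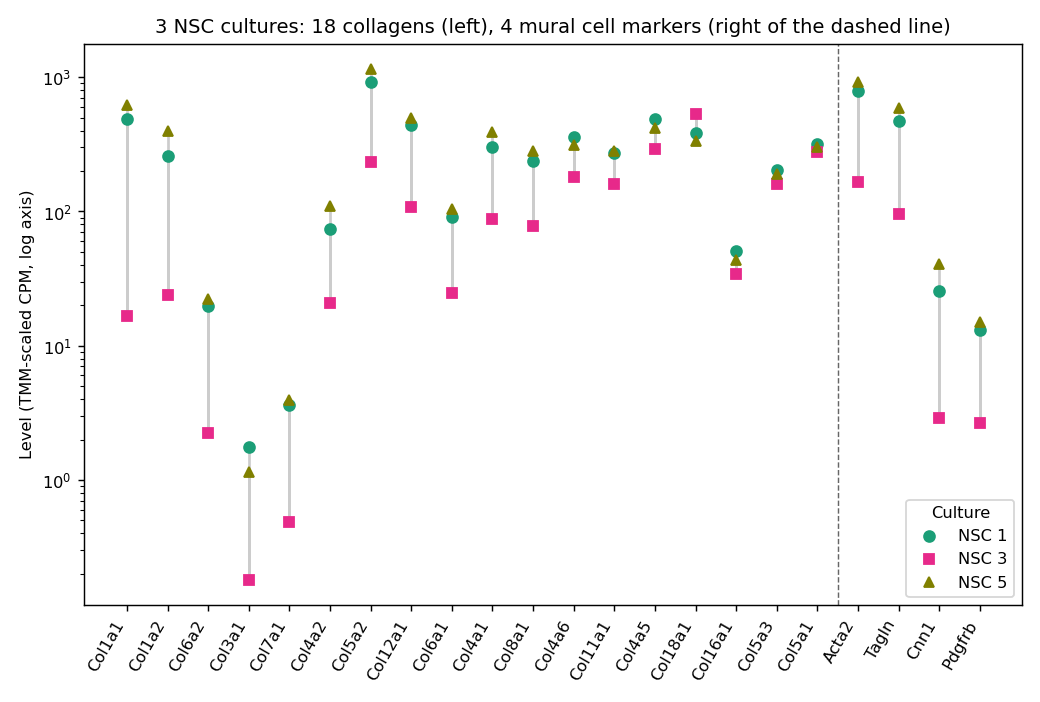
Level in CPM (y axis, log scale) in the 3 NSC cultures of the 18 abundant collagens, ordered by the ratio between NSC 3 and the mean of NSC 1 and NSC 5. To the right of the dashed line are 4 of the 12 mural cell markers. NSC 3 (pink squares) is the lowest point of every gene but Col18a1, and the gap is 33.6 times for Col1a1 and 1.12 times for Col5a1.

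The list of 12 mural markers summed to 311 to 1635 CPM in NSC, 3.97 to 9.69 CPM in LTR and 2.63 to 71.7 CPM in the libraries labelled NF1. Of 6 tested, 5 fell and 1 (Anpep) rose in LTR and 4 fell in the libraries labelled NF1. Over all genes tested, 20.9% fell in LTR and 13.1% in the libraries labelled NF1. Besides Acta2 and Tagln, the list's Notch3 (83.6, 44.4 and 67.2 CPM), Cnn1 (25.6, 2.87 and 40.3 CPM) and the pericyte receptor Pdgfrb (13.1, 2.67 and 15.0 CPM) were present in NSC 1, 3 and 5. These 5 fell in LTR, and all of them but Notch3 (adjusted p = 0.0855) in the libraries labelled NF1. The other 7, among them the pericyte genes Rgs5, Kcnj8, Abcc9, Vtn and Higd1b and the smooth muscle myosin Myh11, were at 0.510 CPM or less in every NSC library, and Vtn and Higd1b were at 0 there. The list of 14 fibroblast and meningeal markers summed to 147 to 179 CPM in NSC, 59.5 to 98.5 CPM in LTR and 59.0 to 59.6 CPM in the libraries labelled NF1, with 2 and 4 of 8 tested lower. The 2 of 8 in LTR were near the 20.9% of all genes that fell there. The list's members Dcn and Lum, abundant in fibroblasts, were at 0.106 CPM or less in every library, and most of its sum in NSC came from Thy1, Twist1, Fbln1 and Islr. The part of either cell type in the collagen levels was not tested.

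NF1 2 departed from NF1 1 and NF1 3 in single collagens, in both directions. It was above both for 11 of the 18 abundant collagens and 22 of the 32 tested, an order that 48.4% of all tested genes shared. The 11 of 18 were not far from that share. Relative to the mean of NF1 1 and NF1 3, Col4a6 was 7.17 times higher, Col11a1 6.31, Col5a3 5.01, Col12a1 4.17 and Col4a5 3.88 times. Col1a1, Col1a2, Col3a1, Col4a1, Col4a2 and Col7a1 were instead lower than that mean, by 1.09 to 5.62 times. Of the 14 neural stem cell markers, NF1 2 was above both NF1 1 and NF1 3 for 11 and below both for Sox2, Pax6 and Vim. Fabp7 was at 343 CPM in NF1 2 and at 4.96 and 1.74 CPM in NF1 1 and NF1 3, against 2364 to 4295 CPM in NSC, and Pax6 was at 21.6 CPM in NF1 2 and at 40.2 and 47.1 CPM in NF1 1 and NF1 3, against 18.1 to 27.9 CPM in NSC. The pericyte gene Rgs5 was at 38.4 CPM in NF1 2 and at 0.510 CPM or less in the other 8 libraries. NF1 2 was above both NF1 1 and NF1 3 for 6 of the 12 mural markers and below both for 0. Of 10 endothelial markers it was above both for 9 and below both for 0. They summed to 45.4, 165 and 25.0 CPM in NF1 1 to 3, with 1 gene at 10 CPM or more in each. The fibroblast and meningeal list had 8 of 14 above both and 2 below both, and 12 microglia and myeloid markers had 4 and 1. The part of any of these in the collagen levels of NF1 2 was not tested.

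Among 5 pairs of chains of 1 collagen type, the ratio of type IV alpha1 to alpha2 varied least over the libraries. Per length of exon, Col4a1 exceeded Col4a2 by 3.52 ± 0.296 times in NSC, 3.03 ± 0.101 in LTR and 3.23 ± 0.719 in the libraries labelled NF1 (SD, n = 3 each). The ratio stayed within 2.70 to 4.04 over all libraries, although Col4a1 itself ran from 87.8 to 394 CPM. The ratio of Col1a1 to Col1a2 was 3.58, 1.31 and 2.96 in NSC 1, 3 and 5. Where the longest transcript served as the length it was 1.70, 0.624 and 1.41, so which chain was higher in NSC 3 depended on the length. Col5a1 to Col5a2 stood at 0.39, 1.34 and 0.296 in NSC. LTR gave 1.12 to 1.24, and the libraries labelled NF1 gave 2.11 to 3.84. NSC 3 lay nearer to the LTR libraries than to NSC 1 and NSC 5 in this ratio. Col4a5 to Col4a6 was 1.71 ± 0.19 in NSC, 1.27 ± 0.371 in LTR and 1.15 ± 0.505 in the libraries labelled NF1, where NF1 2 was lowest at 0.683. Col6a1 to Col6a2 was 8.86, 20.8 and 8.85 in NSC. LTR gave 8.37 to 12.2, and the libraries labelled NF1 gave 6.22 to 6.88.

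**Figure D5:**
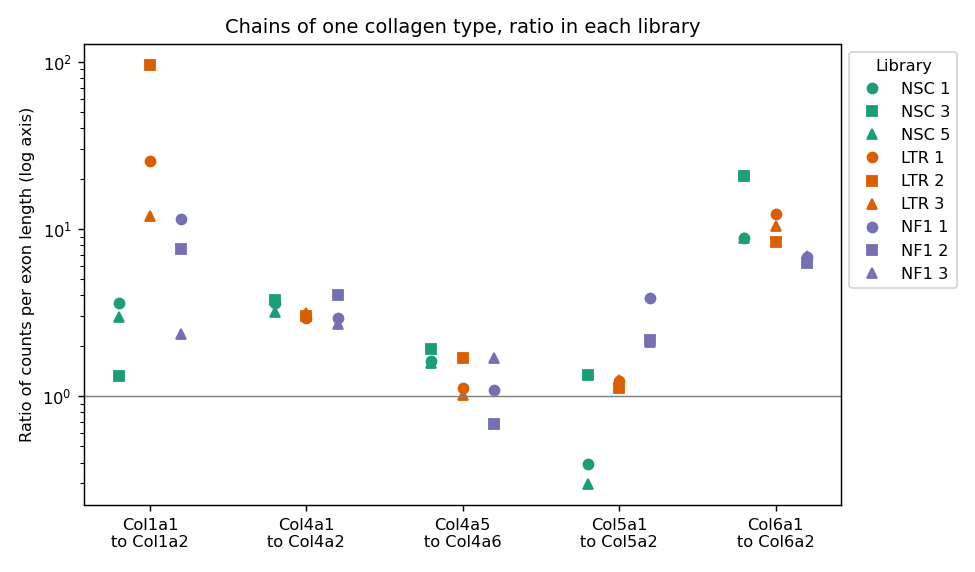
Ratio of counts per exon length (y axis, log scale) between 2 chains of 1 collagen type in each of the 9 libraries. Col4a1 to Col4a2 stays between 2.70 and 4.04, while Col1a1 to Col1a2 is highest in LTR 2, at 95.6, where Col1a2 is nearly absent.

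The genome places several of these pairs side by side. Col4a1 and Col4a2 lie head to head on chromosome 8 and overlap by 22 bases, and the read counts of the kit, which does not keep the strand, cannot separate that stretch. Col4a6 and Col4a5 lie head to head on chromosome X with 1308 bases between them, and both were lower in LTR. Col4a4 and Col4a3 lie head to head on chromosome 1 with 71 bases between them. Col3a1 and Col5a2 also neighbour each other on chromosome 1, tail to tail with 24614 bases and no protein-coding gene between them, yet Col3a1 rose and Col5a2 fell in LTR. Col6a2 and Col6a1 lie on the same strand of chromosome 10, 85161 bases apart.

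Genes that fold, trim, cross-link or bind collagen were examined as lists. Over all genes tested, 20.9% fell in LTR and 13.1% in the libraries labelled NF1. With 1 library left out these shares ran from 11.9% to 26.7% and from 6.63% to 24.5%, the last without NF1 2. Of 20 genes of collagen folding and modification, 1 rose, 9 fell and 10 did not pass in LTR (median log2 fold change -0.55, against -0.06 over all genes, and 5 lower without LTR 3). In the libraries labelled NF1 2 rose, 7 fell and 11 did not pass (median -0.45, against 0.00), and 4 fell there without any 1 of NSC 1, NSC 3, NSC 5 and NF1 1 and 11 without NF1 2. P4ha2, a catalytic subunit of the prolyl hydroxylase that stabilises the helix, measured 7.25 ± 0.999 CPM in NSC. It rose 4.70-fold in LTR, at 34.1 ± 6.87 CPM (adjusted p = 0.000874), and 4.92-fold in the libraries labelled NF1, at 35.7 ± 6.97 CPM (adjusted p = 0.00108). Its relative P4ha3 measured 17.7, 1.07 and 17.5 CPM in NSC and at most 0.0683 CPM in a tumour library (adjusted p = 0.00217 and 0.00387). Fkbp10, a chaperone of procollagen, fell 5.05-fold in LTR (adjusted p = 0.00415) and 9.55-fold in the libraries labelled NF1 (adjusted p = 0.00203, log2 fold change -3.25, and -3.85 without NF1 3). P4hb, the most abundant member that passed in neither, measured 701 ± 67.1 CPM in NSC, 628 ± 65.2 in LTR and 845 ± 107 in the libraries labelled NF1.

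Of 12 tested genes of procollagen processing and cross-linking, 1 rose and 6 fell in LTR (median -1.35), and 1 rose and 4 fell in the libraries labelled NF1 (median -2.39, and 8 lower without NF1 2). The shares of all genes that fell were 20.9% and 13.1%, and 24.5% in NF1 against NSC without NF1 2. Lox, the lysyl oxidase that cross-links fibrils, measured 4.42, 1.55 and 10.99 CPM in NSC, had no count in LTR and was at most 0.0960 CPM in the libraries labelled NF1 (adjusted p = 0.00316 and 0.00684). Loxl1, a related oxidase, was even across NSC at 113, 111 and 110 CPM and fell 53.1-fold in LTR (adjusted p = 0.00441) and 55.6-fold in the libraries labelled NF1 (adjusted p = 0.00607, log2 fold change -5.80, and -8.13 without NF1 2). Loxl3 fell 4.27-fold in the libraries labelled NF1 (adjusted p = 0.00542), and Adamts3, a procollagen N-proteinase, fell in LTR from 2.35 ± 0.424 to 0.00988 ± 0.0171 CPM (adjusted p = 0.00497). Bmp1, the procollagen C-proteinase, passed in neither (152 ± 18, 140 ± 33.9 and 236 ± 115 CPM).

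Of 9 tested collagen receptors, 4 fell in LTR and 3 in the libraries labelled NF1, and none rose (medians -1.20 and -1.06, with 1 lower in the latter without NSC 1, NSC 5 or NF1 1, and 5 without NF1 2). Among all genes 20.9% and 13.1% fell, and 24.5% in NF1 against NSC without NF1 2. Ddr1, a receptor tyrosine kinase for collagen, measured 603 ± 30.6 CPM in NSC and fell 9.74-fold in LTR, at 61.9 ± 4.3 CPM (adjusted p = 0.0033). In NF1 1 to 3 it measured 98.1, 288 and 48.0 CPM (4.17-fold lower, log2 fold change -2.06, and -3.03 without NF1 2; adjusted p = 0.0233, lost without NSC 1, NSC 5 or NF1 1 at 0.0562 to 0.0842). The integrin subunits Itga1 and Itga2 fell 13.1-fold and 62-fold in LTR (adjusted p = 0.00609 and 0.00631), and the log2 fold change of Itga2 went from -5.95 to -7.12 without LTR 2. Itga11 measured 5.21, 0.415 and 9.87 CPM in NSC and was counted in a single tumour library, NF1 2 (0.192 CPM; adjusted p = 0.0296 in the libraries labelled NF1, lost without NSC 1, NSC 5, NF1 1 or NF1 3 at 0.0726 to 0.0863). Mrc2, which takes up collagen for degradation, fell 2.08-fold in the libraries labelled NF1 (adjusted p = 0.00691) and stood at 32.3 ± 1.38 CPM in NSC and 32.5 ± 5.25 in LTR. Itgb1, the beta subunit shared by these integrins, did not pass (1316 ± 66, 981 ± 127 and 948 ± 104 CPM). All 3 tested small proteoglycans of fibrils fell in both tumour groups. Ogn measured 14.6, 5.85 and 20.4 CPM in NSC and fell 51.3-fold in LTR (adjusted p = 0.000853) and 69.6-fold in the libraries labelled NF1 (adjusted p = 0.001). Bgn (10.2, 0.541 and 12.4 CPM in NSC) and Prelp (10.2, 4.13 and 17.0 CPM) fell as well (adjusted p of 0.00305 to 0.0322), with NSC 3 again the lowest, and Prelp was lost in the libraries labelled NF1 without NSC 1, NSC 5, NF1 1 or NF1 3 (0.0606 to 0.113).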

How the data were processed

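The authors deposited raw read counts per gene for 9 libraries. Per the labels' protocols RNA came from an RNAeasy Plus kit and library preparation used NEBNext Ultra RNA, which does not keep the strand. Builds GRCm38 and mm10 and the tools HTSeq, STAR 2.5.2a and DESeq2 1.8.2 stand in the submitters' processing notes, with no settings. For the annotation and the strand setting, nothing is given in the sources used here.

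The tests ran under R 4.3.3 in edgeR 4.0.16 (with limma 3.58.1): 1 model of the 3 groups on all 9 libraries, TMM scaling, filterByExpr (minimum count 10, 15696 genes), the quasi-likelihood F test and Benjamini-Hochberg adjustment over all genes tested. SE were derived from F, and the prior count behind fitted fold changes was 0.125. Bounds use a floor of 3 counts over a group. Intervals and floors cover counting error only. Coordinates, exon lengths and neighbours come from GENCODE M21 (GRCm38), promoters from RefSeq.

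Every collagen with a group mean of at least 10 CPM was described with its value in every library, and every collagen called was named. Of each pathway list, the 3 members with the smallest adjusted p in a comparison and the most abundant member that passed in none were named. The other genes named (Nes, Sox2, Slc1a3, Trp53, Fabp7 and markers) were chosen after their values were seen. The collagens and lists were chosen with earlier results of these data known. Alternatives were DESeq2 1.42.0, 3 other scalings, 2 other filters, 6 libraries only, a replicate block, a GC correction and libraries left out. Libraries of a group differed beyond counting noise (chi-square per degree of freedom 13.4 to 395.2). Tested on simulated data, 48% of 4-fold changes were recovered for LTR against NSC and for NF1 against NSC (15039 and 15043 genes), and 71% for NF1 against LTR (14376 genes). The recovery of 2-fold changes was 2%, 1% and 10%. Only 200 genes were changed in each simulation, all drawn from genes with ample counts. In the data 5634 and 3631 genes were called in LTR and in NF1 against NSC. The Benjamini-Hochberg adjustment depends on how many genes change, so these recoveries do not carry over to the tests against NSC.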

Additional observations from a re-analysis of the deposited data

How the results depend on the processing

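Over 19 alternatives per comparison, 14 of the 19 collagens called in LTR against NSC and 8 of the 14 called in NF1 against NSC passed in every alternative that gave a value. The calls lost in at least 1 were Col4a4, Col4a6, Col16a1, Col22a1 and Col28a1 in LTR, and Col4a5, Col8a1, Col9a1, Col9a3, Col22a1 and Col28a1 in the libraries labelled NF1. Leaving out 1 library at a time, 12 to 18 collagens fell and 2 to 3 rose in LTR, and 10 to 17 fell and 2 rose in the libraries labelled NF1. The share of all genes that fell moved as well, from 11.9% to 26.7% in LTR and from 6.63% to 24.5% in NF1. Leaving out NF1 2 and NSC 3 together, a pair picked after their values were seen, gave 19 lower collagens in the libraries labelled NF1 in place of 12. The filter of 10 CPM in 3 libraries left 1 higher there in place of 2, as fewer genes were tested, and DESeq2 called 1 lower in NF1 against LTR in place of none. The cause of the other changes was not tested. In the labels the replicate numbers only number the cultures. Deviations from the group mean of libraries with the same number correlated at -0.185 to 0.121. With 3 cultures in a group this cannot decide whether samples were paired. With the replicate block 13 collagens fell in LTR and 8 in the libraries labelled NF1, 2 and 1 rose, and over all genes the share of higher calls was 29.5% and 28.1% in place of 41.6% and 43.5%.

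Of the 18 abundant collagens, these log2 fold changes changed sign, none of them called. Ranges are the lowest and highest value when 1 library was left out. In LTR against NSC, Col4a1 was -0.07 without NF1 2 and NSC 3, and Col18a1 was -0.11 with the replicate block and ranged from -0.03 (without NSC 5) to 0.45 (below 0 also without LTR 1, -0.02). In NF1 against NSC, Col4a1 ranged from -0.11 (without NSC 3) to 0.63 (below 0 also without NF1 1, -0.03) and was -0.04 without NF1 2 and NSC 3. Col16a1 was 0.01 with the GC correction and ranged from -0.85 (without NF1 2) to 0.21. Col6a1 was -0.01 with library totals, 0.00 with the 10 CPM filter, -0.02 with the block, -0.62 (without NF1 2) to 0.42 with 1 library left out and -1.0 without both. Col6a2 ranged from -0.15 (without NF1 2) to 1.04 and was -0.62 without both. In NF1 against LTR the extremes on 1 side came without NF1 2: Col4a1 -0.33 to 0.03, Col4a2 -0.42 to 0.13, Col4a6 -0.09 to 2.05 and Col18a1 -0.11 to 0.39, and without both libraries they were 0.03, 0.12, -0.11 and -0.12. Low counts kept 12 collagens out of the test.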
